A study of Mus musculus with 8 samples.

Results

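The 33 genes described here are genes of the astrocyte, chosen by name as rows of a count table from mouse cortex. They fall into 8 roles: 4 structural and enzyme markers, 8 genes of water, ion and glutamate transport, 2 gap junction genes, 7 genes of metabolism, 3 secreted proteins, 2 metallothioneins, 4 receptors and surface proteins, and 3 transcription regulators. All 33 were among the 22000 rows of the table, and all 33 were among the 13879 genes that had enough reads to be tested. The rule names the genes and uses no threshold on a measured value, but they were chosen with earlier results of these data known.

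Messenger RNA was sequenced from the whole cortex of 8 mice, 1 library per mouse. The labels call 4 mice Mef2c heterozygous and 4 Mef2c wild type, where Mef2c encodes a transcription factor of neurons and microglia. Heterozygous replicates 1 and 3 and wild type replicates 2 and 3 were male, and the other 4 mice were female. The animal numbers in the sample titles form 2 runs, a lower and a higher one with a gap between them, called the first and the second run here. The first run holds heterozygous replicates 1 and 2 and wild type replicates 1 and 2, and the second run holds replicates 3 and 4 of each genotype. Each run therefore has 1 male and 1 female of each genotype. The labels do not say what the runs stand for, and the mice's age, strain and the altered part of the Mef2c allele were not in the labels used.

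Astrocytes are glial cells that clear glutamate and potassium released by neurons, turn the glutamate into glutamine, and return it for reuse. They are joined to one another by gap junctions, and their endfeet on blood vessels carry water channels. They also make most of the apolipoprotein E of the brain, store glycogen, and convert thyroid hormone into its active form for neurons. The intermediate filament gene Gfap is known to be low in much of the healthy cortex and to rise in reactive astrocytes.

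The libraries held between 16092773 and 17841377 counts, and the lowest count of any of the 33 genes in any library was 146. RNA integrity numbers lay between 8.6 and 9. Mef2c itself stood at 1233, 1336, 1391 and 1255 CPM (counts scaled to the library total) in heterozygous replicates 1 to 4 and at 1038, 939, 999 and 1003 CPM in wild type replicates 1 to 4, so it was higher in the libraries labelled heterozygous, by 0.39 ± 0.05 (log2, adjusted p = 0.000154 in edgeR's test). Since the altered exons are not given, counts over the whole gene do not check the genotype. Heterozygous below means labelled heterozygous, and a positive difference means a higher level in the libraries labelled heterozygous. Marker genes of cortical excitatory neurons summed to between 8982 and 9873 CPM in every library, and 4 genes of ependyma and choroid plexus to between 9.28 and 13.1 CPM. The labels give no shared culture, litter or batch, so the mice were treated as independent, which the labels do not show. The main genotype fit has no term for the run. Its p-values therefore measure a spread between these 8 mice that includes differences between the runs. In bulk tissue, fewer astrocytes and less of an RNA per astrocyte cannot be told apart.

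Per kilobase of annotated exon, the levels of the 33 genes spanned a 256-fold range. Sparcl1, a secreted matrix protein of astrocytes and vessels, was highest at 662 CPM per kb. It was followed by Glul, glutamine synthetase, at 533 CPM per kb and Apoe, apolipoprotein E, at 492 CPM per kb. Aldoc, a glycolytic aldolase, had 226 CPM per kb, Clu, the chaperone clusterin, had 210, and Slc1a2, the main glutamate transporter of the forebrain, had 209, so these 3 lay close together. The lowest were Slc7a11, the cystine and glutamate exchanger, at 2.59 CPM per kb, and Plcd4, a phospholipase C, at 2.64 CPM per kb. The classical marker Gfap ranked 18 of 33 at 23.5 CPM per kb, next to Dio2, the thyroid hormone deiodinase, at 24.7 CPM per kb. These ranks rest on exon lengths of the annotation and not on the isoforms in use.

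The 33 genes varied between mice about as much as all genes with a mean of at least 10 CPM. The coefficient of variation over the 8 libraries ran from 4.46% for Slc1a2 to 20.1% for Gfap, with a median of 7.67%. All genes with a mean of at least 10 CPM had a median of 7.16%. After Gfap, the widest spreads were those of Slc7a10, a transporter of small neutral amino acids such as serine, at 17.0%, and Dio2 at 15.8%. Both of these separated by run and not by genotype, as the values below show.

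None of the 33 genes passed the test between genotypes. With edgeR's quasi-likelihood test and a Benjamini-Hochberg adjusted p under 0.05 over all genes, 0 of 33 were called, against 37 of 13879 genes (0.267%). The smallest adjusted p of the 33 genes was 0.269, and 0 were called by the DESeq2 Wald test or limma-voom either. At an unadjusted p under 0.05 there were 7 (background 7.24%): Gfap was higher in the libraries labelled heterozygous, and Aldoc, Mlc1, Slc7a11, Glul, Apoe and Clu were lower. Of the 33 differences 26 were below 0, against 50.5% of all genes, and their median was -0.04 on the log2 scale, against -0.001 over all genes. The summed level of the 33 genes was 12644, 12229, 12128 and 12613 CPM in heterozygous replicates 1 to 4. It was 13196, 13132, 12906 and 13264 CPM in wild type replicates 1 to 4. The sums of the genotypes did not overlap, and they are carried mainly by the abundant Slc1a2, Sparcl1, Glul and Apoe. With equal weight per gene the genotypes did overlap. The median log2 level of the 33 genes, each centred on its own mean, was -0.022, -0.059, -0.042 and 0.051 in heterozygous replicates 1 to 4. In wild type replicates 1 to 4 it was 0.019, 0.023, 0.024 and 0.043, so heterozygous replicate 4 was the highest of all. The SD of this median between libraries of one genotype was 0.035.

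**Figure D1:**
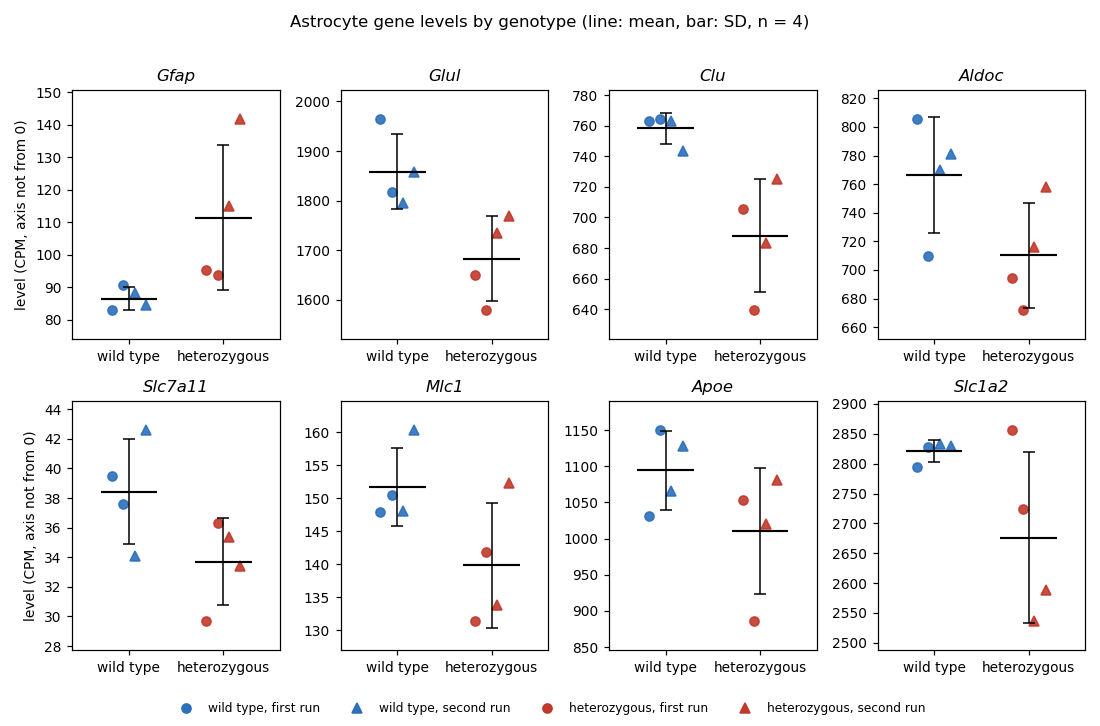
Level in CPM (axes do not start at 0) of 8 astrocyte genes in the 4 wild type and 4 heterozygous libraries, 1 point per mouse, circles for the first run and triangles for the second, with the mean (line) and SD (bar). Glul and Clu lie lower and Gfap higher in all 4 heterozygous libraries, and the other 5 genes overlap between genotypes.

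Gfap had the largest difference of the 33 genes. The gene lies on chromosome 11 (102887336 to 102900912, GRCm38). Its levels were 95.4, 93.8, 115 and 142 CPM in heterozygous replicates 1 to 4 and 82.9, 90.6, 88.3 and 84.4 CPM in wild type replicates 1 to 4. All 4 heterozygous libraries were above all 4 wild type libraries, and the 2 of the second run were the highest. Groups that do not overlap were found for 3 of the 33 genes and for 4.55% of all genes. Gfap had a log2 fold change of 0.36 ± 0.13 (SE; edgeR adjusted p = 0.570).

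Inside the runs, the Gfap difference was 0.12 ± 0.09 (SE, log2) in the first and 0.57 ± 0.09 in the second. The second value was called (adjusted p = 0.00608 in edgeR's test, background 0.108%), and the first was not (adjusted p = 0.869, background 0.238%). The difference between the runs was 0.45 ± 0.13 and missed the threshold (adjusted p = 0.806). Each run has 2 mice a genotype, and the call in the second run ended without heterozygous replicate 4 (log2 fold change 0.38, adjusted p = 0.719) or wild type replicate 4 (0.51, adjusted p = 0.326). It held without heterozygous replicate 3 (0.75, adjusted p = 0.00131) or wild type replicate 3 (0.63, adjusted p = 0.0481). Among the other structural and enzyme markers, S100b, a calcium binding protein, had 108, 114, 90.3 and 107 CPM in heterozygous replicates 1 to 4 and 98.5, 95.4, 97.4 and 111 CPM in wild type replicates 1 to 4. These ranges overlapped widely, with a difference of 0.06 ± 0.06 (log2).

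Aldh1l1, a folate enzyme used as a marker of all astrocytes, had 63.0, 46.9, 62.0 and 72.5 CPM in heterozygous replicates 1 to 4 and 67.3, 66.9, 73.0 and 75.2 CPM in wild type replicates 1 to 4. Heterozygous replicate 2 was the lowest of the 8, and the groups overlapped. The difference was -0.21 ± 0.11 (log2, adjusted p = 0.777 in edgeR's test), and it was -0.086 without heterozygous replicate 2 and -0.33 without heterozygous replicate 4. Of its exon bases, 11.0% are shared with a gene on the opposite strand, and whether the counting used strand is not stated in the labels. Aldoc had 695, 672, 716 and 758 CPM in heterozygous replicates 1 to 4 and 805, 710, 770 and 781 CPM in wild type replicates 1 to 4. Here too the groups overlapped, with a difference of -0.11 ± 0.05 (log2, adjusted p = 0.571).

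The 8 transport genes lay between -0.19 and 0.04 on the log2 scale, 7 of them below 0. Slc1a2 had 2857, 2724, 2536 and 2589 CPM in heterozygous replicates 1 to 4, and 2794, 2829, 2833 and 2830 CPM in wild type replicates 1 to 4. The wild type libraries lay close together, and the 2 heterozygous libraries of the second run were the lowest of the 8. The difference was -0.08 ± 0.04 (adjusted p = 0.766 in edgeR's test). Slc1a3, the other astrocytic glutamate transporter, had 548, 610, 501.6 and 503 CPM in heterozygous replicates 1 to 4 and 524, 559, 546 and 547 CPM in wild type replicates 1 to 4. Heterozygous replicate 2 lay above the wild type range, replicates 3 and 4 below it and replicate 1 inside it. The difference was -0.01 ± 0.06 (log2).

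Aqp4, the water channel of the endfeet, had 110, 118, 116 and 123 CPM in heterozygous replicates 1 to 4 and 105, 123, 113 and 130 CPM in wild type replicates 1 to 4. Its groups overlapped and its difference was -0.01 ± 0.06 (log2). Mlc1, a membrane protein of the endfeet, had 131, 142, 134 and 152 CPM in heterozygous replicates 1 to 4 and 148, 151, 148 and 160 CPM in wild type replicates 1 to 4. Only heterozygous replicate 4 reached the wild type range, and the difference was -0.12 ± 0.05 (log2, adjusted p = 0.617 in edgeR's test). Slc7a11 had 29.7, 36.3, 35.4 and 33.4 CPM in heterozygous replicates 1 to 4 and 39.5, 37.6, 34.1 and 42.6 CPM in wild type replicates 1 to 4. The groups overlapped through wild type replicate 3, and the difference was -0.19 ± 0.08 (log2, adjusted p = 0.570). Atp1b2, a subunit of the sodium pump, had a difference of -0.08 ± 0.06 (log2), and Slc4a4, a sodium bicarbonate cotransporter, one of -0.02 ± 0.06.

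Glul had the smallest p of the 33 genes. It lies on chromosome 1 (153899944 to 153909723, GRCm38). Its levels were 1651, 1579, 1735 and 1769 CPM in heterozygous replicates 1 to 4 and 1965, 1817, 1794 and 1858 CPM in wild type replicates 1 to 4. Every heterozygous library was below every wild type library, with the 2 genotypes closest in the second run. Glul had a log2 fold change of -0.14 ± 0.04 (SE; edgeR adjusted p = 0.269). Inside the runs it was -0.23 ± 0.06 in the first and -0.06 ± 0.06 in the second, and the test of this difference between the runs had an adjusted p of 0.999.

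The other 6 genes of metabolism lay between -0.17 and 0.02 on the log2 scale. Cbs, the enzyme that makes cystathionine, had -0.17 ± 0.11, and Ppp1r3c, a glycogen targeting subunit of a phosphatase, had -0.13 ± 0.08. Acsbg1, which activates long fatty acids, had -0.04 ± 0.06, and Ndrg2, a stress response gene abundant in astrocytes, had -0.03 ± 0.05. Plcd4 had -0.03 ± 0.11 and Dio2 0.02 ± 0.18. Dio2 differed by run, as given further on, and with the run as a term its genotype difference was 0.01 ± 0.05.

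The 3 secreted proteins were all below 0. Clu, on chromosome 14 (65968483 to 65981547, GRCm38), had 705, 639, 683 and 725 CPM in heterozygous replicates 1 to 4 and 763, 765, 763 and 743 CPM in wild type replicates 1 to 4. Every heterozygous library was below every wild type library, and the wild type libraries differed little among themselves. The difference was -0.14 ± 0.04 (log2, adjusted p = 0.292 in edgeR's test). Apoe had 1053, 886, 1021 and 1082 CPM in heterozygous replicates 1 to 4 and 1031, 1150, 1066 and 1129 CPM in wild type replicates 1 to 4. These groups overlapped, and the difference was -0.12 ± 0.05 (log2, adjusted p = 0.681). Sparcl1 had a difference of -0.09 ± 0.05 (log2, adjusted p = 0.726).

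The remaining roles showed no difference past the threshold. Of the gap junction genes, Gja1, connexin 43, had 146, 157, 158 and 170 CPM in heterozygous replicates 1 to 4 and 155, 169, 156 and 160.5 CPM in wild type replicates 1 to 4, with a difference of -0.02 ± 0.06 (log2). Its groups overlapped. Gjb6, connexin 30, had a difference of -0.10 ± 0.11, which ran from -0.19 without heterozygous replicate 4 to -0.0016 without wild type replicate 1. The metal binding genes Mt1 and Mt3, neighbours on chromosome 8, had -0.02 ± 0.10 and -0.004 ± 0.07. Among receptors and surface proteins, Ntsr2, a neurotensin receptor, had 0.07 ± 0.05, Fgfr3, a fibroblast growth factor receptor, had -0.04 ± 0.06, Bmpr1b, a BMP receptor, had -0.02 ± 0.11, and F3, tissue factor, had -0.04 ± 0.08. Of the transcription regulators, Hes5, a Notch target, had 0.21 ± 0.12 and Sox9 had 0.08 ± 0.11, while Id4, an inhibitor of helix-loop-helix factors, had -0.12 ± 0.07. Hes5 was the lowest of the 33 genes in CPM, at 11.4 ± 1.07 (SD, n = 4) in the heterozygous and 9.87 ± 1.20 (SD, n = 4) in the wild type libraries. Of its exon bases 31.8% are shared with Gm20421 on the opposite strand.

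**Figure D2:**
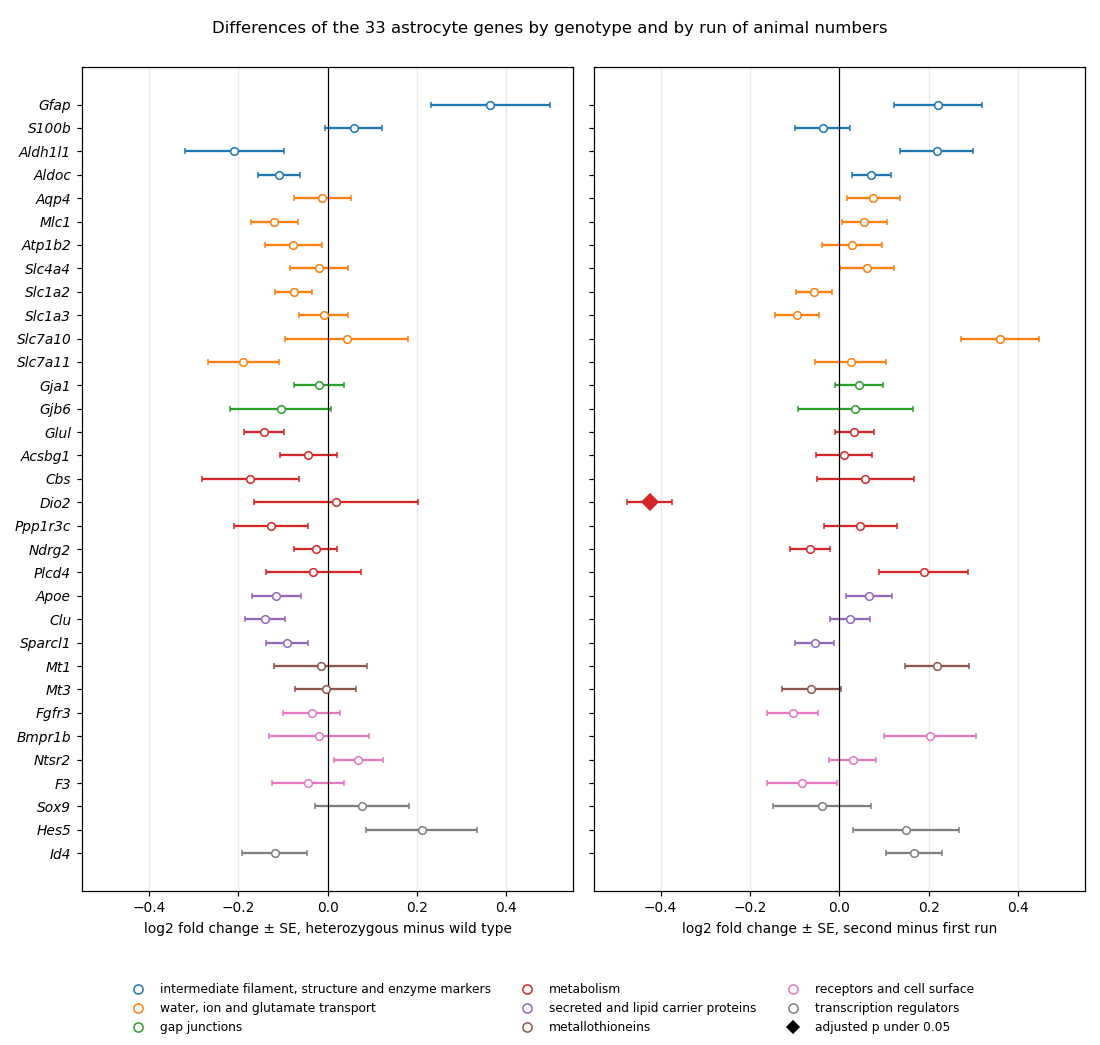
Log2 fold change with its standard error for each of the 33 genes, coloured by role, heterozygous minus wild type on the left and second minus first run on the right, with filled diamonds for genes past the threshold. No gene is filled on the left, where 26 of 33 lie below 0, and Dio2 alone is filled on the right.

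For 15 of the 33 genes the genotype difference had opposite signs in the runs. That is close to the share of all genes that the backgrounds given next leave over. The genotype difference was below 0 in both runs for 14 of 33 genes (background 27.1%), above 0 in both for 4 (background 26.4%), namely Gfap, Ntsr2, Sox9 and Hes5. The medians were -0.09 in the first run and -0.06 in the second. The 14 include Aldh1l1, Aldoc, Mlc1, Slc1a2, Slc7a11, Glul, Cbs, Apoe, Clu and Sparcl1. Between males and females, 18 of 33 were below 0 in both (background 27.8%), with medians of -0.07 and -0.08.

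**Figure D3:**
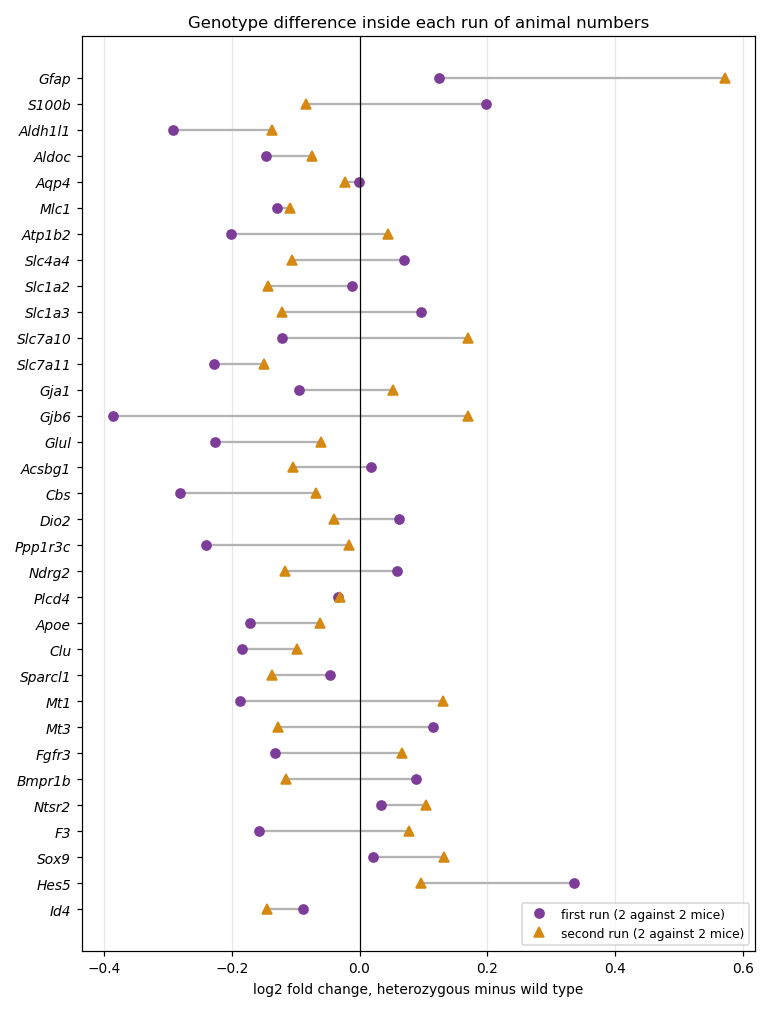
Genotype difference (log2 fold change, heterozygous minus wild type) of each of the 33 genes inside the first run (circles) and the second run (triangles), 2 against 2 mice each, joined by a line. Gjb6 and Gfap have the longest lines, and 15 of the lines cross 0, close to the share of all genes with opposite signs.

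No gene of the 33 passed the test of a genotype difference that differs between runs (0 of 33, against 1 of 13879 genes, 0.00721%), and 6 had an unadjusted p under 0.05 (background 4.09%). The smallest p was that of Gjb6, on chromosome 14. Its levels were 70.3, 65.3, 81.6 and 87.3 CPM in heterozygous replicates 1 to 4 and 96.2, 81.2, 79.9 and 70.1 CPM in wild type replicates 1 to 4. In the first run the heterozygous libraries were the lower ones, and in the second run the higher ones. The genotype difference was -0.39 ± 0.10 (log2) in the first run and 0.17 ± 0.10 in the second, a difference of 0.56 ± 0.14 (edgeR adjusted p = 0.363). Its partner Gja1 had -0.09 ± 0.08 and 0.05 ± 0.08. The other 5 genes were Gfap, S100b, Slc1a3, Atp1b2 and Mt1, with adjusted p between 0.806 and 0.999.

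Sex differences and their interaction with genotype gave 0 calls among the 33 genes. For sex, 4 of 13879 genes were called (0.0288%). Plcd4, Ppp1r3c and S100b had an unadjusted p under 0.05 (background 2.92%). Their log2 differences, male minus female, were 0.24 ± 0.11, -0.18 ± 0.08 and -0.14 ± 0.06. Of the exon bases of Plcd4, 29.8% are shared with Zfp142 on the opposite strand. For the interaction, 0 of 13879 genes (0%) were called in edgeR's test and 464 had an unadjusted p under 0.05 (3.34%). Sox9, a transcription factor of the glial lineage, was the 1 member among these. Its levels were 41.5, 33.1, 40.1 and 35.4 CPM in heterozygous replicates 1 to 4 and 43.4, 30.1, 35.3 and 33.5 CPM in wild type replicates 1 to 4. The difference was 0.32 ± 0.12 (log2) in males and -0.16 ± 0.12 in females, and the interaction did not pass the threshold after adjustment.

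The test of a run difference that differs between the sexes, with genotype as a term, was chosen after the data had been seen. It called 29 of 13879 genes (0.209%), 0 of the 33 astrocyte genes, and 7 of the 33 had an unadjusted p under 0.05 (background 9.48%): Apoe, Acsbg1, Atp1b2, Slc4a4, Aldh1l1, Sparcl1 and Id4. The smallest was that of Apoe, at -0.29 ± 0.07 (log2, adjusted p = 0.101 in edgeR's test). In the first run Apoe stood at 1053 and 1150 CPM in the males (heterozygous replicate 1 and wild type replicate 2) and at 886 and 1031 CPM in the females (heterozygous replicate 2 and wild type replicate 1). In the second run it stood at 1021 and 1066 CPM in the males and at 1082 and 1129 CPM in the females. Acsbg1 had -0.32 ± 0.10 (adjusted p = 0.226). Mature oligodendrocyte markers moved the same way, with 12 of 12 below 0 and a median of -0.39, 0 of them called, and their part in the values of Apoe was not tested.

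The 8 lists of further astrocyte genes and pathways held 135 genes, of which 126 could be tested. Between genotypes 0 of the 126 were called (background 0.267%), 14 had an unadjusted p under 0.05 (background 7.24%), and 82 lay below 0 (50.5% of all genes), with a median of -0.03. In the list of 30 further astrocyte markers 25 lay below 0, with a median of -0.10. Its member of smallest p was the mitochondrial glutamate carrier Slc25a18, at 53.1, 47.6, 63.2 and 66.7 CPM in heterozygous replicates 1 to 4 and 80.0, 72.8, 70.5 and 77.6 CPM in wild type replicates 1 to 4. These groups did not overlap. Slc25a18 had a difference of -0.38 ± 0.09 (log2, adjusted p = 0.118 in edgeR's test), and it was called with the run as a further term (adjusted p = 0.0229, background 0.519%). Rfx4, a transcription factor and next in that list, had -0.40 ± 0.13 (adjusted p = 0.359).

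In the list of potassium, sodium and GABA handling, 8 of 11 genes lay below 0, with a median of -0.05. Kcnj10, the Kir4.1 potassium channel that is known to take up potassium in astrocytes, had 239, 238, 231 and 268 CPM in heterozygous replicates 1 to 4 and 283, 271, 249 and 303 CPM in wild type replicates 1 to 4. The groups overlapped through heterozygous replicate 4 and wild type replicate 3. The difference was -0.18 ± 0.05 (log2, adjusted p = 0.196 in edgeR's test). Kcnj16, the Kir5.1 subunit that pairs with it, had -0.47 ± 0.21 (adjusted p = 0.722). The medians of the other lists were -0.007 for the glutamate and glutamine cycle (10 of 12 below 0), -0.03 for lipid and cholesterol supply (14 of 17), and -0.07 for glycogen and lactate (7 of 12). They were 0.04 for astrocyte transcription factors (7 of 16) and 0.05 for metallothionein and zinc handling (3 of 7).

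The list of reactive astrocyte genes had 21 of 30 genes with enough reads, and 13 of the 21 lay above 0, with a median of 0.02. None of the 21 was called, and 1, Srgn, a proteoglycan core protein, had an unadjusted p under 0.05 (0.46 ± 0.17, adjusted p = 0.456 in edgeR's test). Vim, the filament protein that is known to rise with Gfap in reactive astrocytes, had 28.7 CPM in the heterozygous and 26.3 CPM in the wild type libraries on average, a difference of 0.13 ± 0.10 (adjusted p = 0.913). Serpina3n, a protease inhibitor that is a common marker of that state, had -0.11 ± 0.17 (adjusted p = 0.980). The 9 genes left out, such as Lcn2 and Timp1, had too few reads to be tested.

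Inside the first run, 5 of the 126 list genes were called between genotypes, all lower in the heterozygous libraries (background 0.159%), against 0 of the 33 genes. Kcnj16 had 13.7 and 17.0 CPM in heterozygous replicates 1 and 2 and 31.4 and 27.2 CPM in wild type replicates 1 and 2, a difference of -0.93 ± 0.13 (log2, adjusted p = 0.000859 in edgeR's test). The others were Slc25a18 (-0.60), Etnppl, a lyase of phosphoethanolamine (-0.74), Mfge8, a secreted protein that aids phagocytosis (-0.48), and S1pr1, a receptor of sphingosine phosphate (-0.42). In the second run the 5 genes lay between -0.19 and 0.07, and 0 of the 126 were called. The difference between the runs itself passed for none of the 5 (adjusted p from 0.176 to 0.904). These calls rest on 2 against 2 mice, and 1 of the 5, Kcnj16, was left without heterozygous replicate 2 or without wild type replicate 1.

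Marker genes of other cells were compared between the genotypes too. Of 11 microglia genes, 3 were called higher in the libraries labelled heterozygous (C1qb, C1qc and Ctss), 9 lay above 0, and the median was 0.18. The summed microglia level was between 416 and 474 CPM in the heterozygous and between 374 and 403 CPM in the wild type libraries. It was higher in the heterozygous libraries without overlap, as was Gfap. The summed level of the 33 genes did not overlap either but was lower in the heterozygous libraries. So was that of the 126 list genes, at 11249 to 11661 against 11671 to 11897 CPM. With equal weight per gene the 126 overlapped between genotypes. Their median centred log2 level was 0.014 in heterozygous replicate 4 and 0.011 in wild type replicate 3. The sums of the further astrocyte markers overlapped too, at 2128 to 2401 CPM in the heterozygous and 2359 to 2481 CPM in the wild type libraries. None of the striatal or leptomeningeal genes was called, and their sums overlapped. Striatal genes, which mark a neighbouring region, lay above 0 in 7 of 7, with a median of 0.22 and sums of 271 to 379 and 266 to 318 CPM. Inside the first run they lay above 0 in 7 of 7, with a median of 0.51 (smallest adjusted p = 0.0518 in edgeR's test). Their sums there did not overlap, at 357 and 379 CPM in heterozygous replicates 1 and 2 and 266 and 287 CPM in wild type replicates 1 and 2. Inside the second run their median was -0.11. Leptomeningeal fibroblast genes lay above 0 in 6 of 8, with a median of 0.21 and sums of 59.5 to 89.1 and 56.4 to 75.8 CPM. No marker summed here was at 0 in a whole group. The part of these cells in the differences of the 33 genes, and in the list genes called inside the first run, was not tested.

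**Figure D4:**
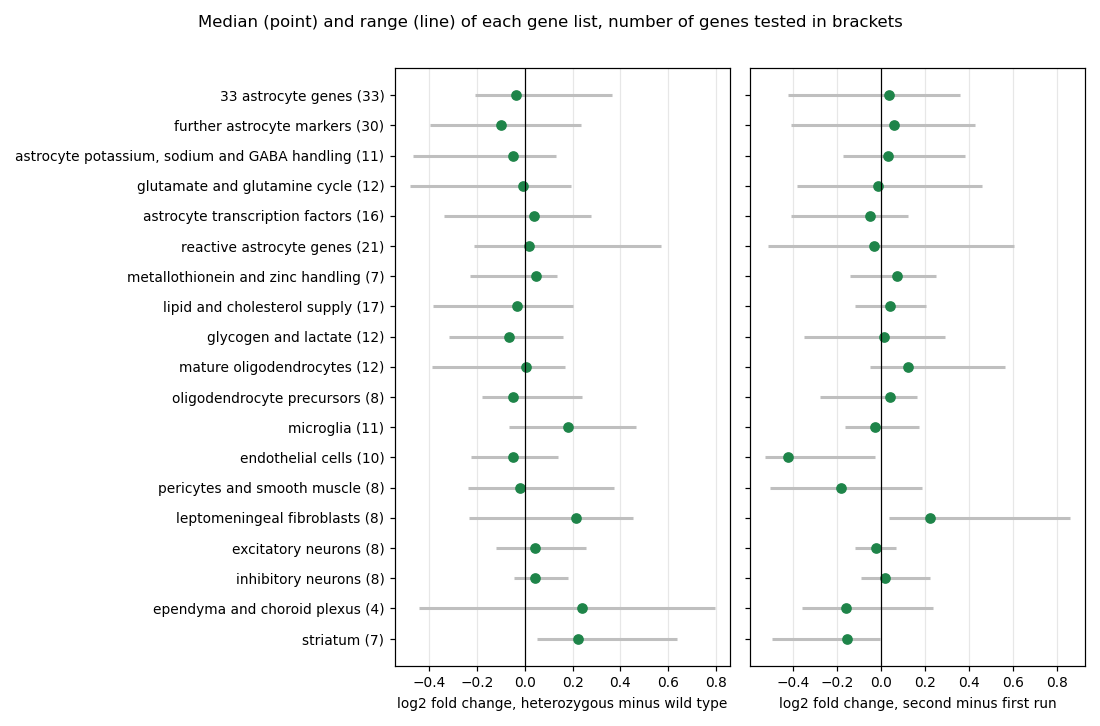
Median (point) and range (line) of the log2 fold changes of each gene list, heterozygous minus wild type on the left and second minus first run on the right, with the number of genes tested in brackets. The 33 astrocyte genes have medians of -0.04 and 0.04, microglia lie at 0.18 on the left and endothelial cells at -0.43 on the right.

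Between the runs of animal numbers, 1 of the 33 genes was called, Dio2, against 53 of 13879 genes (0.382%). Dio2 encodes type 2 deiodinase, which turns the prohormone thyroxine into active thyroid hormone and in the cortex is known to be made by astrocytes. It lies on chromosome 12 (90724552 to 90738438, GRCm38). Its levels were 167 and 169 CPM in heterozygous replicates 1 and 2 and 162 and 160 CPM in wild type replicates 1 and 2, all of the first run. In the second run they were 119 and 123 CPM in heterozygous replicates 3 and 4 and 128 and 121 CPM in wild type replicates 3 and 4. All 4 libraries of the second run were below all 4 of the first, in both genotypes and both sexes. The means were 165 ± 4.25 CPM (SD, n = 4) and 123 ± 3.77 CPM (SD, n = 4), a 1.34-fold higher level in the first run. Second minus first run, the log2 fold change of Dio2 was -0.42 ± 0.05 (SE; edgeR adjusted p = 8.52e-05). It was called under each of the 7 other scalings, filters, tools and terms tried and without each library in turn. Of its exon bases 1.72% are shared with Gm26512 on the opposite strand.

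The promoter of Dio2 is shown because it is the 1 gene of the 33 called between the runs with all libraries. Dio2 is known as a gene induced through cyclic AMP, and the RefSeq window of 250 bases before its start (GRCm38.p6, chr12:90739039-90739288, minus strand) holds the cyclic AMP response element TGACGTCA and a TATA box. Capitals mark the 2 motifs, the response element at 95 to 88 and the TATA box at 30 to 25 bases before the start.
Dio2 promoter: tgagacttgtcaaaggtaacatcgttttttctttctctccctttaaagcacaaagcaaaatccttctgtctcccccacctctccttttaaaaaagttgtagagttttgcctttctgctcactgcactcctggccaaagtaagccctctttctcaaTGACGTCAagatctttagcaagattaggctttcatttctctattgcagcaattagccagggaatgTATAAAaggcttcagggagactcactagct
RefSeq windows were supplied for 28 of the 33 genes, all but Aqp4, Atp1b2, Clu, Sparcl1 and Sox9. Searched on both strands, TGACGTCA occurred in 1 of the 28, Dio2, and in 1.77% of 27025 genes. The letters TATAAA occurred in 5 of the 28 (Apoe, Bmpr1b, Dio2, Ndrg2 and Slc1a3) and in 14.3% of all genes. The consensus of the MEF2 factors occurred in 1, Ndrg2, and in 3.42% of all genes. A match describes the letters of the window only, and RefSeq places the start of Dio2 upstream of the GENCODE start.

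**Figure D5:**
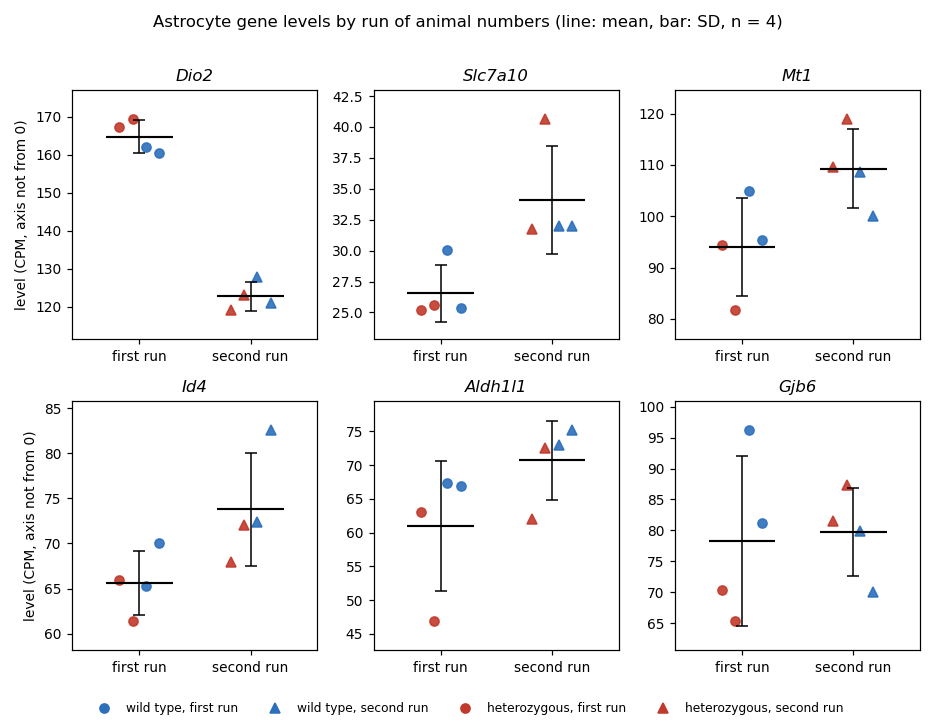
Level in CPM (axes do not start at 0) of 6 astrocyte genes in the 4 libraries of the first run (circles) and the 4 of the second (triangles), blue for wild type and red for heterozygous, with the mean (line) and SD (bar). Dio2 is lower and Slc7a10 higher in all 4 libraries of the second run, and Gjb6 changes the order of the genotypes between the runs.

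Slc7a10 was the other gene of the 33 whose runs did not overlap (2 of 33, against 5.46% of all genes). It had 25.2 and 25.6 CPM in heterozygous replicates 1 and 2, 30.0 and 25.4 CPM in wild type replicates 1 and 2, 31.8 and 40.6 CPM in heterozygous replicates 3 and 4, and 32.0 and 32.0 CPM in wild type replicates 3 and 4. The second run was higher throughout, most of all in heterozygous replicate 4. The difference was 0.36 ± 0.09 (log2, adjusted p = 0.0691 in edgeR's test), and it passed with no filter on low counts (adjusted p = 0.0339) or without wild type replicate 1 (0.0378) or wild type replicate 4 (0.0321). Of its exon bases 17.9% are shared with Lrp3 on the opposite strand.

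Of the 33 genes, 6 had an unadjusted p under 0.05 between runs (background 10.2%), and 23 lay above 0 (50.9% of all genes), with a median of 0.04. Besides Dio2 and Slc7a10 these were Mt1 at 0.22 ± 0.07 (log2), Aldh1l1 at 0.22 ± 0.08, Id4 at 0.17 ± 0.06 and Gfap at 0.22 ± 0.10, all higher in the second run. Mt1 had 94.4 and 81.7 CPM in heterozygous replicates 1 and 2, 105 and 95.4 CPM in wild type replicates 1 and 2, 110 and 119 CPM in heterozygous replicates 3 and 4, and 109 and 99.99 CPM in wild type replicates 3 and 4. Wild type replicate 1 overlapped the second run, and without it Mt1 was called (0.30, adjusted p = 0.0398 in edgeR's test, against 0.251 with all libraries). Id4 had 65.9 and 61.4 CPM in heterozygous replicates 1 and 2, 65.3 and 70.03 CPM in wild type replicates 1 and 2, 68.0 and 72.1 CPM in heterozygous replicates 3 and 4, and 72.4 and 82.6 CPM in wild type replicates 3 and 4, with an overlap of the runs.

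Among the 126 list genes 6 were called between the runs (background 0.382%). The second run was lower in Chrdl1, a BMP antagonist secreted by astrocytes (-0.41 ± 0.08, adjusted p = 0.0295 in edgeR's test), Htra1, a secreted protease (-0.24 ± 0.05, 0.0340), Slc38a2, an amino acid transporter (-0.38 ± 0.05, 0.000737), and Slc2a1, the glucose transporter of the blood-brain barrier (-0.35 ± 0.07, 0.0134). It was higher in S1pr1 (0.27 ± 0.06, 0.0487) and Prodh, proline dehydrogenase (0.46 ± 0.09, 0.0220). Endothelial markers moved with the runs: 3 of 10 were called lower in the second run (Pecam1, Ly6c1 and Abcb1a), 10 of 10 lay below 0, and the median was -0.43. Their sum was between 316 and 353 CPM in the first run and between 244 and 301 CPM in the second, without overlap. No endothelial marker was at 0, and their part in the difference of Dio2 was not tested. Oligodendrocyte markers lay above 0 in 10 of 12 and leptomeningeal markers in 8 of 8.

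The 8 pairs of genes with a shared role were compared over the 8 mice, on log2 CPM with a pseudocount of 0.5 CPM and exact two-sided permutation tests. The metallothionein genes Mt1 and Mt2 gave a Pearson r of 0.87 (exact permutation p = 0.00608, adjusted over the 8 pairs p = 0.0486) and a Spearman rho of 0.79 (p = 0.0279, adjusted p = 0.115). Without the 2 samples farthest from the median of Mt1, r was 0.42 (n = 6, exact permutation p = 0.458). Leaving out extremes narrows the range of Mt1, so this value cannot show whether the relation rests on those samples. Without 1 library, r ran from 0.69 (heterozygous replicate 2 left out) to 0.93 (heterozygous replicate 1 left out). After subtraction of each run's mean, r was 0.89, and a run of 4 mice is too small for a value of its own. Permuting such values across both runs gives no exact p-value, so none is given. Apoe and Clu, the lipid carriers, gave r = 0.82 (adjusted exact permutation p = 0.0618) and rho = 0.74 (adjusted p = 0.115). After subtraction of the run means, r was 0.83. Without the 2 samples farthest from the median of Apoe, r was 0.34.

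The other 6 pairs did not pass. Pearson r was 0.54 for Slc1a2 and Slc1a3, 0.31 for Gja1 and Gjb6, -0.45 for Mt1 and Mt3, 0.07 for Slc7a10 and Slc7a11, 0.59 for Aqp4 and Mlc1, and 0.24 for Gfap and Aqp4, with adjusted exact permutation p from 0.323 to 0.878. Spearman's rho for these pairs was 0.48, 0.14, -0.71, -0.02, 0.74 and 0.21. All 8 values of a pair come from the same libraries, so depth and scaling are shared.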

How the data were processed

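The deposited values are unnormalised counts of reads by gene symbol. STAR 2.5.2b and HTSeq with the build mm10 are named in the submitters' processing notes, while annotation, strand setting and filters were not given in the sources used here. Per the labels' protocols, RNA was enriched for poly-A. From these counts, edgeR 4.0.16 in R 4.3.3 kept genes by filterByExpr (minimum count 10; 99.95% of the reads), scaled libraries by TMM, and ran robust quasi-likelihood tests with Benjamini-Hochberg adjustment over all genes, called under 0.05. Genotype was fitted with sex, run with sex and genotype, and interactions with all terms. Differences inside a run or a sex are contrasts of the interaction fits over all 8 libraries. CPM values are TMM-scaled. Standard errors were derived from the F statistic. Alternatives used DESeq2 1.42.0, limma 3.58.1 (voom), other filters, scalings and terms, and each library left out. The pipeline was tested on simulated data.

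The 33 genes and the other lists were chosen with earlier results of these data known. Library values are given for 6 fixed markers, for called members, and for a few others chosen after their values were seen (Mlc1, Apoe). They are also given for the 5 members of smallest p for genotype, run, sex or a genotype interaction, except Plcd4, Ppp1r3c and Ndrg2. From some of the other lists, called genes or up to 2 of smallest p are named, with a few more such as Vim and Serpina3n. For the rest at most medians, counts or sums are given. 2 symbols of the other lists were not used in them here. No pair of libraries of the same genotype agreed within sampling noise (lowest chi-square per degree of freedom 4.12), and pairs across genotypes were not compared. Coordinates, exon lengths and overlapping genes are those of GENCODE release M21 (GRCm38), matched by symbol for 33 of 33 genes. Promoters are those of RefSeq.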

Additional observations from a re-analysis of the deposited data

Results flagged for a closer look

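In 3 of 66 groups of 4 libraries (33 genes, 2 genotypes), a single library lay so far from the nearest other that its gap passed Dixon's critical value, and chance gives about 1 in 20. They are Slc1a2 in wild type replicate 1, the lowest of its group at 2794 CPM, Ppp1r3c in heterozygous replicate 4, the highest at 39.7 CPM, and Clu in wild type replicate 4, the lowest at 743 CPM. The Slc1a2 and Clu values stand apart in groups whose other 3 libraries lay close together.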

How the results depend on the processing

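The labels name no pairs of mice, and no paired test of genotype was run, although each run holds 1 mouse of each sex and genotype. Matching by run and sex entered only through the fit with both as terms. In that fit the smallest adjusted p of the 33 genes was 0.184 in edgeR's test (Glul). Gfap had a genotype difference of 0.35 ± 0.10 there (log2, adjusted p = 0.247). Genotype calls over all genes were 37, and 82 with no filter, 80 with the DESeq2 Wald test, 72 with sex and run as terms, and 19 to 80 without 1 library. Run calls were 53, and 95 with no filter, 32 with the run alone, and 11 to 77 without 1 library. Among the 33 genes, genotype calls over all 8 mice were 0 in every alternative and 0 without each library in turn, while inside the second run 1 was called (Gfap). Run calls were 1, and 2 with no filter and 1 to 3 without 1 library. The median genotype difference was -0.088 in the first run, -0.077 in females and -0.082 to -0.023 without 1 library, and 7 to 12 genes lay above 0. Of the pairs, 1 passed, and 0 without the farthest samples, and 0 to 3 without 1 library. The cause was not tested. Without 1 library the sign of some small differences turned. For genotype the ranges were -0.079 to 0.042 (Aqp4), -0.059 to 0.019 (Gja1), -0.086 to 0.12 (Dio2), -0.13 to 0.086 (Mt1), -0.092 to 0.057 (Plcd4), -0.080 to 0.032 (Slc1a3), -0.12 to 0.16 (Slc7a10), -0.069 to 0.017 (Ndrg2) and -0.018 to 0.21 (Sox9). For run they were -0.097 to 0.023 (S100b), -0.042 to 0.076 (Slc7a11), -0.063 to 0.16 (Gjb6), -0.15 to 0.12 (Sox9), -0.011 to 0.075 (Glul), -0.022 to 0.12 (Ppp1r3c) and -0.016 to 0.043 (Clu). Run differences of Dio2 lay between -0.46 and -0.40, and genotype differences of Gfap between 0.21 and 0.45. With 4 mice a genotype, the standard errors of 0.04 to 0.18 limit what could be called.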
